A study of Mus musculus with 14 samples.

Results

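Transcripts of 9 genes that mark T, B and NK lymphocytes were followed through the bulk RNA-seq of mouse plexiform neurofibromas (PNs): Cd3e, Cd3d, Cd3g, Cd4 and Cd8a for T cells, Cd79a, Cd79b and Ms4a1 for B cells, and Nkg7 for NK and other cytotoxic cells. They were taken by symbol from the count table, and all 9 were among its 24062 genes. The 14 libraries came from 3 control dorsal root ganglia (DRGs) with their nerves, named DRG3, DRG4 and DRG5, and from 11 PNs, each named by its mouse number. The 5 slow-growing PNs were 1079, 1198A, 1202, 1203 and 1206, and the 6 fast-growing PNs were 1053, 1071, 1179, 1191, 1214 and 1216. Tumor volume was followed by MRI at 7 and 9 months, and PNs were slow-growing when the volume changed by less than 5 mm3 and fast-growing when it rose by more than 35 mm3 over those 2 months. PN mice were labelled Dhh-Cre;Nf1fl/fl and controls Nf1fl/fl. Dhh-Cre acts in the Schwann cell lineage. Strain background was mixed C57BL/6, I-129 and FVBN in every animal, and no drug was given. Tissue was taken at 9 months by the methods, although 7 months is also given for the PNs, and the sex of each animal is not in the labels.

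Lymphocytes recognize antigen through receptor complexes whose signaling chains are the same in every clone, which makes transcripts of those chains convenient markers. In T cells the antigen receptor is held at the surface by the CD3 epsilon, delta and gamma chains, while CD4 and CD8 alpha are the coreceptors that engage MHC class II and class I. In B cells CD79A and CD79B carry the signal of the membrane immunoglobulin, and Ms4a1 encodes CD20. Nkg7 encodes a membrane protein of the cytotoxic granules of NK cells and CD8+ T cells. Lymphocytes are normally sparse in peripheral nerve and ganglia, and T cells are known to enter neurofibromas. In bulk tissue, fewer cells of a type and less RNA per cell cannot be told apart.

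In the genome (mm10, GENCODE M21), Cd3e (chr9:44998740-45009627, minus strand), Cd3d (chr9:44981786-44987339, plus strand) and Cd3g (chr9:44969572-44980431, minus strand) are neighbours. Only 1354 bases separate the divergent Cd3d and Cd3g, and 11400 bases separate Cd3d from Cd3e. Cd4 (chr6:124864692-124888221, minus strand) and Cd8a (chr6:71373427-71379173, plus strand) share a chromosome, as do Cd79a (chr7:24897381-24902197, plus strand) and Nkg7 (chr7:43437073-43438249, plus strand). Cd79b lies at chr11:106311341-106314762 on the minus strand and Ms4a1 at chr19:11249675-11266241 on the minus strand. Exons of 8 of these genes overlapped no exon of another annotated gene. Cd3e shared 135 exonic bases, or 3.31% of its exon length, with the antisense gene Gm48719, and the sources used here do not state whether reads were counted by strand.

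Promoters of the CD3 neighbours are shown because Cd3d followed a different pattern across libraries from Cd3e and Cd3g, and that of Cd79a is shown as the B cell counterpart. Each runs from 250 bases before the RefSeq gene start to 50 bases after it, on the gene's strand (RefSeq, GRCm38.p6). Capitals mark an ETS motif (GGAAGT) or an E-box (CAGGTG), each searched on both strands, with the reverse complements ACTTCC and CACCTG.
Cd3e: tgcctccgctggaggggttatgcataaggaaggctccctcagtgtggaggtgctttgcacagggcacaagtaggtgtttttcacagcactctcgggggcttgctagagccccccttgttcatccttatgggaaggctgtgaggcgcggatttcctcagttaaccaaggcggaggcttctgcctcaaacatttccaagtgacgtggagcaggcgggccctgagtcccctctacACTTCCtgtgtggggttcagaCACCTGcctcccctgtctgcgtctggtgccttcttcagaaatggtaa
Cd3d: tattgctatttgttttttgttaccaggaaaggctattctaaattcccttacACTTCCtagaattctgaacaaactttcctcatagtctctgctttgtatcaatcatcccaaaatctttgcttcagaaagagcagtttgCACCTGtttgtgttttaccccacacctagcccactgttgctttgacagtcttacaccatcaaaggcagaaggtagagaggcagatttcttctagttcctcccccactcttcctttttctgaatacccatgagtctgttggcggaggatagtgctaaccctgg
Cd3g: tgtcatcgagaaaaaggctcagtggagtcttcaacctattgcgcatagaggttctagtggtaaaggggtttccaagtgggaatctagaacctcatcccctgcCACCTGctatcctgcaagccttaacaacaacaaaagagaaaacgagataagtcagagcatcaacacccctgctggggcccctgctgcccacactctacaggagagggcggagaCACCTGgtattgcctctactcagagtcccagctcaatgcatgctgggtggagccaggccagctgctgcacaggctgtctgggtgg
Cd79a: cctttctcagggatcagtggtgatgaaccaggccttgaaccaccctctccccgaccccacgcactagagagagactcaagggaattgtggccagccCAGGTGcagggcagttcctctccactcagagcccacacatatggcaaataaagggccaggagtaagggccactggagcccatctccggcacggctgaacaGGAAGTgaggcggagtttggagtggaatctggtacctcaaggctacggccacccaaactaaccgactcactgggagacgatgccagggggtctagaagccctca
The windows are chr9:45009562-45009861 (minus strand), chr9:44981536-44981835 (plus strand), chr9:44980382-44980681 (minus strand) and chr7:24897247-24897546 (plus strand). The Cd3g window held 2 E-boxes and no ETS motif, whereas those of Cd3e, Cd3d and Cd79a each held 1 of both. Promoters were found for 6 of the 9 members, the others being Cd4, Cd79b and Ms4a1. Of those 6, 4 held the E-box and 3 the ETS motif, against 20.2% and 23.8% of 32851 promoters of the same length. A RUNX motif (TGTGGT, in 16.8% of promoters) was present in that of Nkg7 alone among them, and neither an EBF motif (CCCNNGGG, 13.7%) nor the octamer ATGCAAAT (1.74%) occurred in any of the 6. These matches describe letters in a window and not bound sites.

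Libraries held 9596773 to 17594164 counts on genes, and the medians were 10627393 for controls, 11707116 for slow-growing and 14459516 for fast-growing PNs. Levels are counts scaled to library size (CPM) after TMM normalization, and 3 counts corresponded to 0.166 to 0.317 CPM depending on the library. These floors cover counting error only. Schwann cell markers, which define nerve tissue, were abundant in all libraries, with a summed level over 16 genes of 4917 to 14652 CPM in controls and 8703 to 23344 CPM in PNs. Sensory neuron markers summed to 1976 CPM or more in every library but the fast-growing PN 1191, where 18 genes together reached 48.6 CPM.

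Some libraries stood apart in genes of lymphoid tissue or of marrow. Glycam1, a mucin of the high endothelial venules of lymph nodes, reached 265 counts in DRG4 and 2642 in DRG5 but no more than 8 in any other library. The neutrophil gene S100a9 was at 6113 counts in DRG5 against 77 to 1373 elsewhere, and Mpo, of granulocyte precursors, was at 1482 counts there against 7 to 206. Rag1, whose product cuts antigen receptor genes in developing lymphocytes, reached 2490 counts in PN 1079 and 1353 in PN 1191, then 131 in PN 1202 and 97 in PN 1206, and no more than 40 in the remaining libraries. Dntt, which adds nucleotides at the receptor joints of developing lymphocytes, followed with 935 counts in PN 1079, 396 in PN 1191 and at most 62 elsewhere. Foxn1, of the thymic epithelium, was at 0 to 5 counts in all 14 libraries. Other genes of lymphocyte precursors and thymus differed, with Psmb11 at 98 to 343 counts and Ptcra at 4 to 54. Both were higher in PNs than in controls, by 0.73 and 1.63 on the log2 scale (edgeR adjusted p = 0.00346 and 0.00458). The B precursor genes Vpreb1 and Igll1 were at 0 to 4 and 0 to 10 counts. How much these tissues contributed to the members' levels was not tested, and the counts of calls are therefore also given without the libraries concerned.

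**Figure D1:**
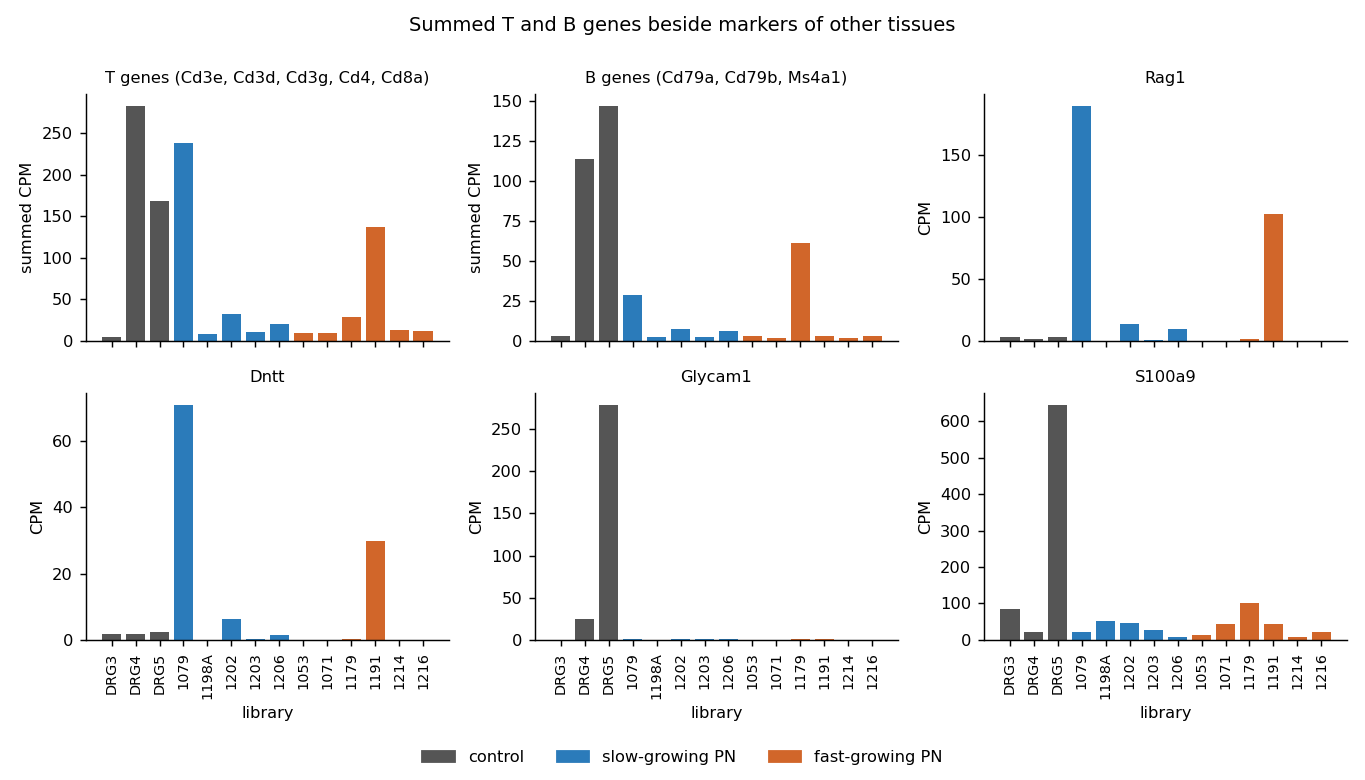
Bars give the summed CPM of the 5 T cell and the 3 B cell members and the CPM of Rag1, Dntt, Glycam1 and S100a9 in each of the 14 libraries, colored by group, on linear axes from 0. T cell genes were high in DRG4, DRG5, 1079 and 1191, Rag1 and Dntt in 1079 and 1191, and Glycam1 in DRG5 and, at a lower level, in DRG4.

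Among T cell genes, Cd3e was low in most PNs and in 1 of the 3 controls. Controls had Cd3e at 1.30 CPM in DRG3, 67.1 in DRG4 and 46.0 in DRG5. Slow-growing PNs had 47.6 CPM in 1079, 4.27 in 1202, 3.18 in 1206, 0.526 in 1198A and 0.183 in 1203, the last of which was 2 counts. In fast-growing PNs the lowest, median and highest levels were 0.749, 1.52 and 22.7 CPM, the highest in 1191. The ranges of all 3 groups overlapped, because DRG3 was as low as most PNs and PN 1079 was as high as DRG5.

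Cd3g was high in the same 4 libraries, DRG4, DRG5, 1079 and 1191. It was at 0.173, 22.1 and 12.9 CPM in DRG3, DRG4 and DRG5. In slow-growing PNs it was at 9.27 CPM in 1079, 1.93 in 1202, 0.150 in 1198A, 0.0964 in 1206 and 0.0913 in 1203, and fast-growing PNs ran from 0 through a median of 0.427 to 4.99 CPM in 1191. In 5 of 11 PNs Cd3g was at or below the floor of 3 counts, so that its absence there could not be told from a low level at this depth.

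Cd3d behaved differently from both neighbours. Controls had 0.518, 22.9 and 10.9 CPM in DRG3, DRG4 and DRG5. The PN levels kept to a narrow band, at 12.7 CPM in 1079, 6.91 in 1202, 5.64 in 1198A, 5.21 in 1206 and 3.56 in 1203, with 4.59, 6.05 and 9.23 CPM as the lowest, median and highest of the fast-growing PNs. No PN had fewer than 39 counts, whereas DRG3 had 6, and every PN lay above DRG3. The ratio of Cd3d to Cd3e in CPM was 0.237 to 0.4 in the 3 controls, 0.267 in PN 1079 and 0.407 in PN 1191, but 0.862 to 19.5 in the other 9 PNs, with the highest ratio in PN 1203. Over the 14 libraries Pearson's r of log2(CPM + 1) was 0.97 between Cd3e and Cd3g and 0.75 between Cd3e and Cd3d, as a description of points that share their libraries.

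**Figure D2:**
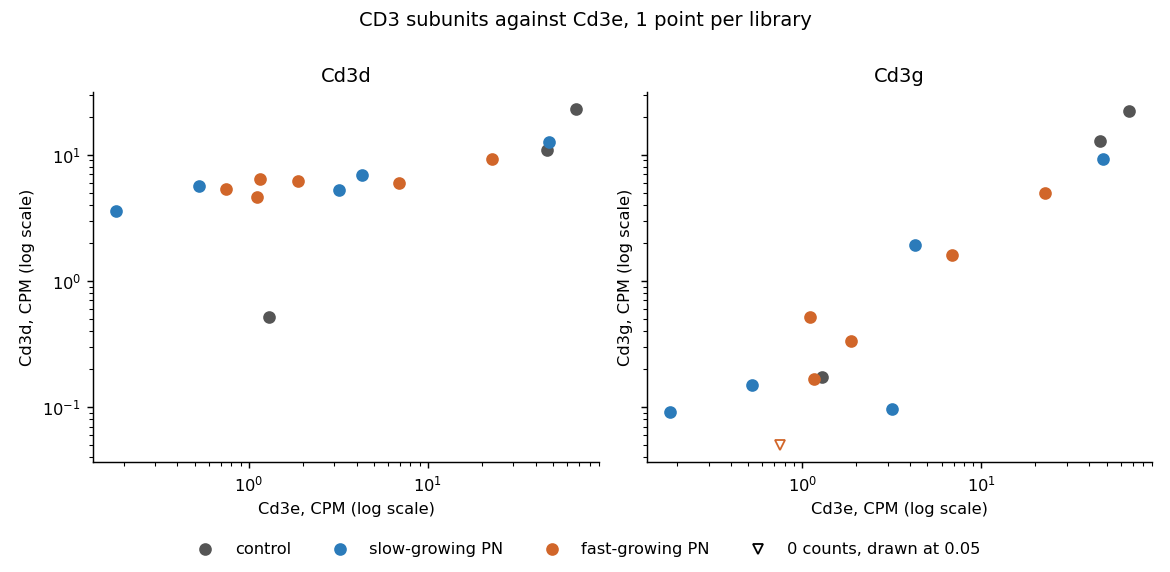
Each point is 1 library, colored by group, with Cd3e on the horizontal axis and Cd3d (left) or Cd3g (right) on the vertical axis, all in CPM on log scales. Cd3g ran with Cd3e down to the floor, whereas Cd3d stayed between 3.56 and 12.7 CPM in all 11 PNs and was 0.518 CPM in DRG3.

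Both coreceptors were again highest in DRG4, DRG5, 1079 and 1191. Cd4 was at 0.950, 123 and 77.5 CPM in DRG3, DRG4 and DRG5, and at 69.9, 7.92, 5.01, 1.0 and 0.150 CPM in the slow-growing PNs 1079, 1202, 1206, 1203 and 1198A. Fast-growing PNs had Cd4 at 0.408 CPM at the lowest, 1.03 at the median and 49.1 at the highest, in 1191. Cd8a was at 1.73, 47.7 and 20.7 CPM in the same controls and reached its highest level of any library in PN 1079, at 98.4 CPM, ahead of 11.2, 6.56, 5.75 and 1.80 in 1202, 1206, 1203 and 1198A. Fast-growing PNs had Cd8a at 1.6, 3.97 and 50.7 CPM from lowest through median to highest, the highest being 1191.

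Per kilobase of exon, Cd8a was above Cd4 in 10 of 11 PNs and in 1 of 3 controls. That control was DRG3, low in T cell genes, with 20 counts of Cd8a and 11 of Cd4. Cd4 was also at few counts in several of these PNs, at 2 in 1198A, 6 in 1071 and 11 in 1203. It was at 13 counts in 1216, 14 in 1053 and 16 in 1214. A difference in this order between PNs and controls was not tested. In DRG4 the levels were 30.5 CPM per kilobase for Cd4 and 13.1 for Cd8a, and in DRG5 they were 19.2 and 5.70. PN 1079 had 17.3 for Cd4 and 27.1 for Cd8a, and PN 1191 had 12.2 and 13.9. PN 1179 was the exception among the PNs, with 1.94 for Cd4 and 1.69 for Cd8a.

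B cell genes were high in DRG4 and DRG5, as the T cell genes were, but in a different set of PNs. Cd79a was at 1.38, 38.1 and 47.5 CPM in DRG3, DRG4 and DRG5. The slow-growing PNs had Cd79a at 9.58 CPM in 1079 and 0.827 to 3.45 CPM in the other 4, and the fast-growing PNs had 0.666, 1.17 and 26.1 CPM as lowest, median and highest. That highest level belonged to PN 1179, while PN 1191, with abundant T cell genes, had 1.44 CPM.

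Cd79b was at 0.605, 41.8 and 58.4 CPM in DRG3, DRG4 and DRG5, at 8.74, 3.76, 3.25, 1.5 and 0.639 CPM in 1079, 1206, 1202, 1198A and 1203, and at 0.476, 1.76 and 17.8 CPM in the fast-growing PNs, again with 1179 at the top. Ms4a1 was near the floor in many PNs. Its levels were 0.950, 33.7 and 41.3 CPM in the controls, 10.2, 0.868, 0.711, 0.548 and 0.0751 CPM in 1079, 1206, 1202, 1203 and 1198A, and 0.0680, 0.122 and 17.8 CPM in the fast-growing PNs, and it was at or below 3 counts in 5 of 11 PNs. Summed over their members, T cell genes reached 137 CPM and B cell genes 3.03 CPM in PN 1191, whereas PN 1179 had 28.4 and 61.6 CPM.

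Nkg7 was low in PNs of either growth rate. It was at 0.691, 31.2 and 18.1 CPM in DRG3, DRG4 and DRG5, and the slow-growing PNs had 1.20 CPM in 1198A, 0.914 in 1202, 0.836 in 1079, 0.289 in 1206 and 0 in 1203. Fast-growing PNs had 0, 1.04 and 4.61 CPM as lowest, median and highest, with 1179 the highest. PN 1079 and PN 1191, which stood out for Cd3e, Cd4 and Cd8a, had Nkg7 at 11 and 15 counts, close to the PN median. DRG3 fell inside the PN range here as well, so that the groups overlapped.

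**Figure D3:**
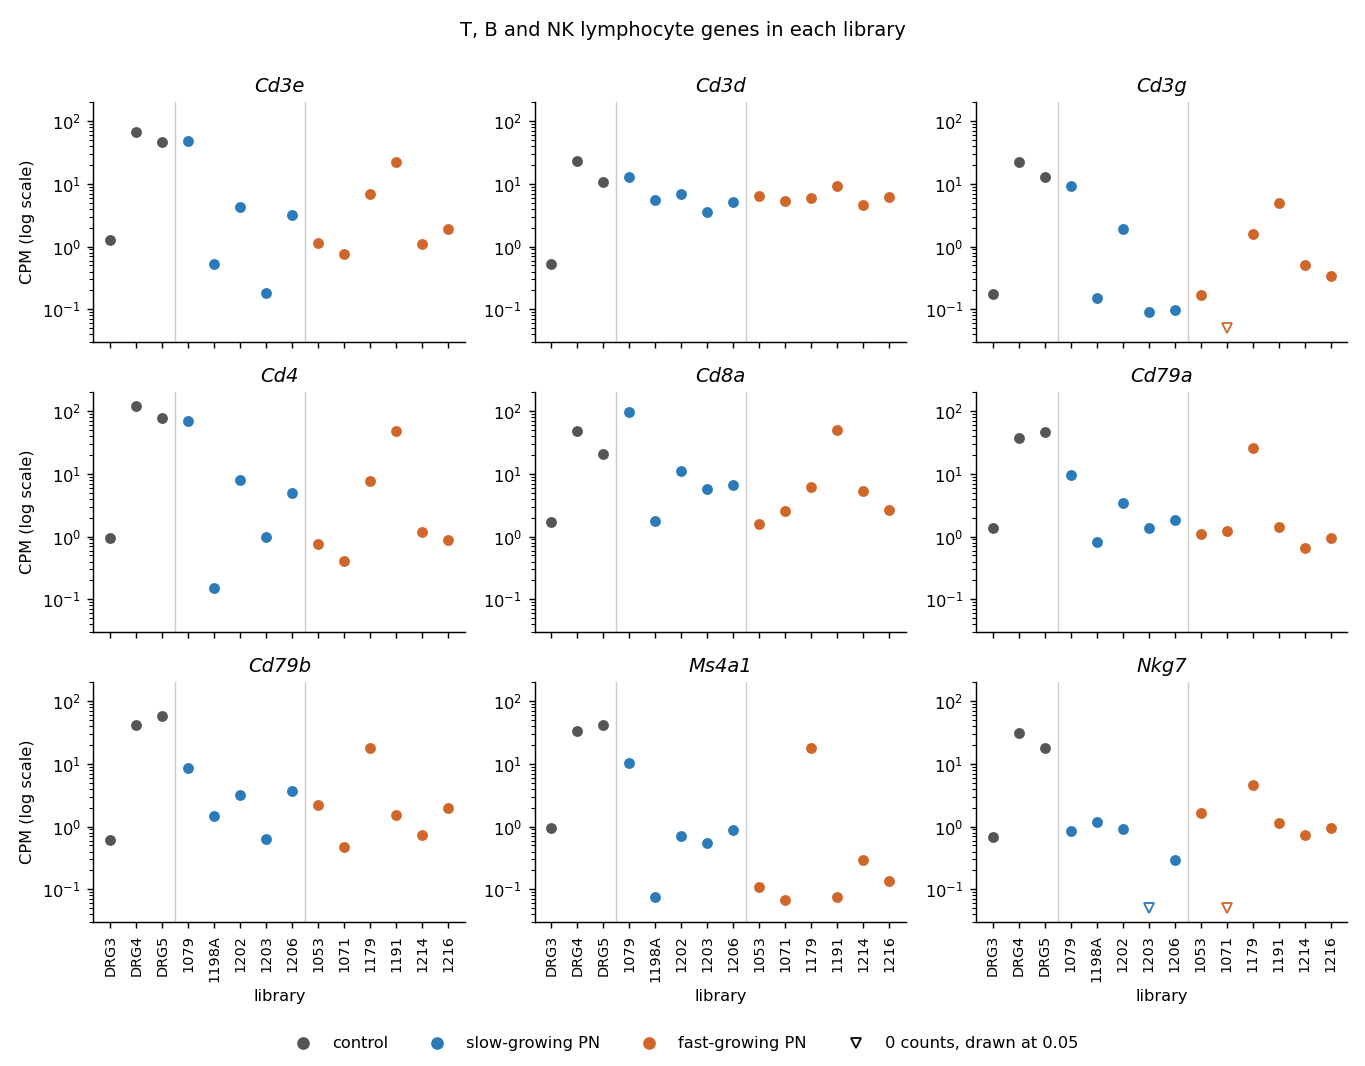
Each panel gives 1 gene in CPM on a log scale in the 14 libraries, colored by group, with open triangles for 0 counts. DRG4 and DRG5 were high for all 9 genes and DRG3 was low, PN 1079 and PN 1191 were high for Cd3e, Cd3g, Cd4 and Cd8a, and PN 1179 was the highest PN for Cd79a, Cd79b, Ms4a1 and Nkg7.

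On the scale of CPM per kilobase of exon, the control means ran from 23.5 for Cd79b, 19.9 for Cd79a, 18.2 for Nkg7 and 16.7 for Cd4 through 9.35 for Cd3e, 6.43 for Cd8a and 6.31 for Cd3d to 4.10 for Ms4a1 and 3.59 for Cd3g. With 3 controls, SDs were close to the means, such as 33.6 ± 29.7 CPM (SD, n = 3) for Cd79b and 16.7 ± 15.3 CPM for Nkg7. The genes share these libraries, so the SDs do not measure differences between genes, which were not tested. The PN order was another one, led by Cd8a at 4.81, Cd3d at 3.59 and Cd4 at 3.25 CPM per kilobase on average, with Ms4a1 last at 0.453. PN SDs exceeded the means for every member but Cd3d, at 6.51 ± 2.5 CPM (SD, n = 11), and the order is given as a description.

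All 9 members had lower fitted levels in the 11 PNs than in the 3 controls, and Cd79b and Nkg7 passed the test. Cd79b had a log2 fold change of -3.11 (SE 0.93, adjusted p = 0.0236) and Nkg7 of -3.87 (SE 0.88, adjusted p = 0.00554) by quasi-likelihood testing in edgeR, with Benjamini-Hochberg adjustment over 16283 genes. These 2 of 9 compare with 13.4% of all genes tested called lower in PNs, and 0 of 9 was called higher, against 12.9%. The median log2 fold change of the members was -2.71, against 0.095 for all genes tested. No member separated the groups without overlap, while 9.48% of genes tested were lower in every PN than in every control and 8.18% were higher. The p-values measure the spread between these samples.

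The other 7 members did not pass. Cd79a, at -2.71 (SE 1.0), and Ms4a1, at -3.17 (SE 1.33), had edgeR adjusted p-values of 0.0584 and 0.0921 with Benjamini-Hochberg adjustment, while DESeq2 called Cd79a (adjusted p = 0.0334) beside Cd79b and Nkg7. For the T cell genes the log2 fold changes were -2.74 (SE 1.20) for Cd3g, -2.36 (SE 1.36) for Cd4, -2.21 (SE 1.20) for Cd3e, -0.81 (SE 0.58) for Cd3d and -0.42 (SE 1.20) for Cd8a, with edgeR adjusted p-values of 0.106, 0.220, 0.190, 0.320 and 0.829 in that order. The 95% interval of the Cd8a change ran from -2.76 to 1.93, wide enough to hold a large difference in either direction, and that of Cd3d from -1.94 to 0.32.

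These calls rested on 2 of the 3 controls, and calls over all genes fell too, from 13.4% lower to 8.77% without DRG4, 6.92% without DRG5 and 1.93% without both, while they were 13% without DRG3. Without DRG4 no member was called, with Nkg7 at -3.04 (edgeR adjusted p = 0.0648) and Cd79b at -2.92 (edgeR adjusted p = 0.0879), and without DRG5 only Nkg7 was called, at -3.81. Without both, which leaves DRG3 as the single control, all 9 log2 fold changes turned positive, from 0.70 for Nkg7 to 3.77 for Cd4, and Cd3d alone was called, at 3.63 (edgeR adjusted p = 0.0165). That fit assumes that the lone control varied as PNs do. Without DRG3, 4 members were called lower: Cd3d at -1.37, Cd79a at -3.27, Cd79b at -3.68 and Nkg7 at -4.43.

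PNs with high levels also set the calls. Without PN 1079 and PN 1191, a choice made after seeing the data, 6 members were called lower, with Cd3e at -4.13, Cd3g at -4.47, Cd4 at -4.64, Cd8a at -2.32, Cd79b at -3.23 and Nkg7 at -3.85. In that fit 13.8% of all genes were called lower. Leaving out PN 1179 alone gave 4 calls, all lower, with Cd79a at -3.69, Cd79b at -3.76, Ms4a1 at -4.27 and Nkg7 at -4.40. Leaving out PN 1079 alone gave 4, with Cd3e at -3.21 and Cd3g at -3.62 beside Cd79b and Nkg7. Of all genes, 12.95% were called lower without PN 1179 and 13.6% without PN 1079. The limma-voom fit of all 14 libraries called Ms4a1 alone, at -4.39, and gave Nkg7 an adjusted p of 0.0506. It called 14.5% of all genes lower.

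**Figure D4:**
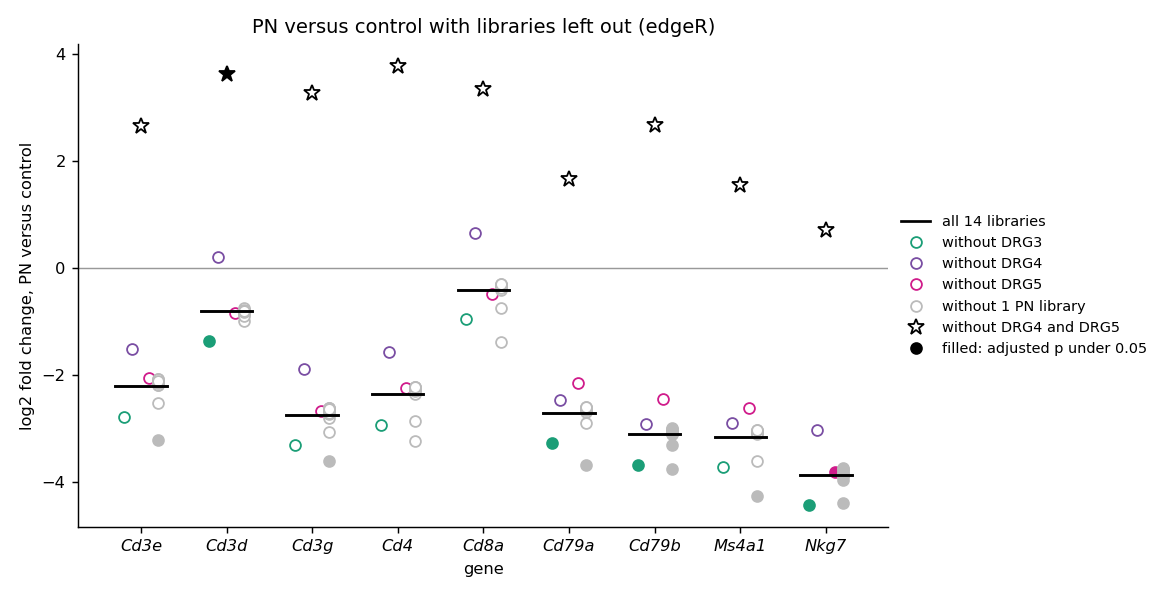
For each gene the bar marks the log2 fold change between PNs and controls with all 14 libraries, circles the fits without 1 library and stars the fit without DRG4 and DRG5, with filled symbols for an edgeR adjusted p under 0.05. Every star lay above 0, and among fits without 1 library only those without DRG4 put Cd3d and Cd8a above 0.

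Divided by growth, the PNs were set against the same 3 controls, which both comparisons therefore share. Nkg7 was called lower in both, at -4.69 (SE 1.09, edgeR adjusted p = 0.0297) in slow-growing and -3.51 (SE 1.08, edgeR adjusted p = 0.0333) in fast-growing PNs. With limma-voom its adjusted p was 0.216 and 0.201. It was the only 1 of 9 members called in either edgeR fit, while 7.13% of genes tested were called lower and 4.12% higher in slow-growing PNs, and 16.7% lower and 14.8% higher in fast-growing PNs. The B cell genes had log2 fold changes of -3.12 (Cd79a), -3.26 (Cd79b) and -3.36 (Ms4a1) in slow-growing PNs and of -2.53, -3.09 and -3.11 in fast-growing PNs. The fast-growing values were -4.74, -4.58 and -7.46 without PN 1179, and -1.92, -2.36 and -2.50 without DRG5. For the T cell genes they were -1.80 (Cd3e), -0.80 (Cd3d), -2.36 (Cd3g), -2.03 (Cd4) and 0.04 (Cd8a) in slow-growing PNs, and -2.79, -0.93, -3.27, -2.80 and -1.08 in fast-growing PNs. Call counts moved with single libraries here too. In slow-growing PNs no member was called without DRG4, DRG5, 1079, 1202 or 1206, fits in which 2.43% to 5.41% of all genes were called lower, and 3 were without DRG3 (9.57%). In fast-growing PNs no member was called without DRG4, DRG5, 1053, 1214 or 1216 (10.2% to 14.9% of all genes lower), 4 were without 1179 (14.1%), and 5 were without DRG3 (17.1%) or without 1191 (17.4%).

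Fast-growing and slow-growing PNs were then compared with each other, the comparison that bears on tumor growth and leaves the controls out. None of the 7 members tested was called by edgeR after Benjamini-Hochberg adjustment, none had an unadjusted p under 0.05, and DESeq2 and limma-voom also called 0. Over all 15465 genes tested, 1.27% were called, 0.802% higher and 0.466% lower in fast-growing PNs. The intervals were wide for most members. Nkg7 was 1.19 higher on the log2 scale in fast-growing PNs (95% interval -0.62 to 3.0), Cd79a 0.61 higher (-1.48 to 2.70) and Cd79b 0.19 higher (-1.62 to 2.01), while Cd3e was at -0.97 (-3.43 to 1.49), Cd4 at -0.75 (-3.57 to 2.06) and Cd8a at -1.11 (-3.33 to 1.10). Cd3d was the narrowest, at -0.12 (-0.72 to 0.48).

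Cd3g and Ms4a1 were below the count filter in this comparison. By an exact two-sided permutation test over the 462 assignments of the 11 PNs, their mean log2(CPM + 1) differed by -0.21 (unadjusted p = 0.764) and -0.32 (unadjusted p = 0.574) between fast-growing and slow-growing PNs. Single PNs turned the sign of 6 of the 7 members. Without PN 1079 the log2 fold changes of Cd3e, Cd3d, Cd4 and Cd8a were positive, at 1.49, 0.25, 1.5 and 0.85. Without PN 1179 Cd79a was at -1.67 and Cd79b at -1.37, and Cd79b was just below 0 without PN 1198A or PN 1203. Leaving out PN 1191 turned no sign but gave larger negative values for Cd3e, Cd4 and Cd8a, at -2.24, -2.92 and -2.77, and Nkg7 stayed positive throughout, from 0.44 to 1.54. No member was called in any of the 11 fits that left out 1 PN.

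**Figure D5:**
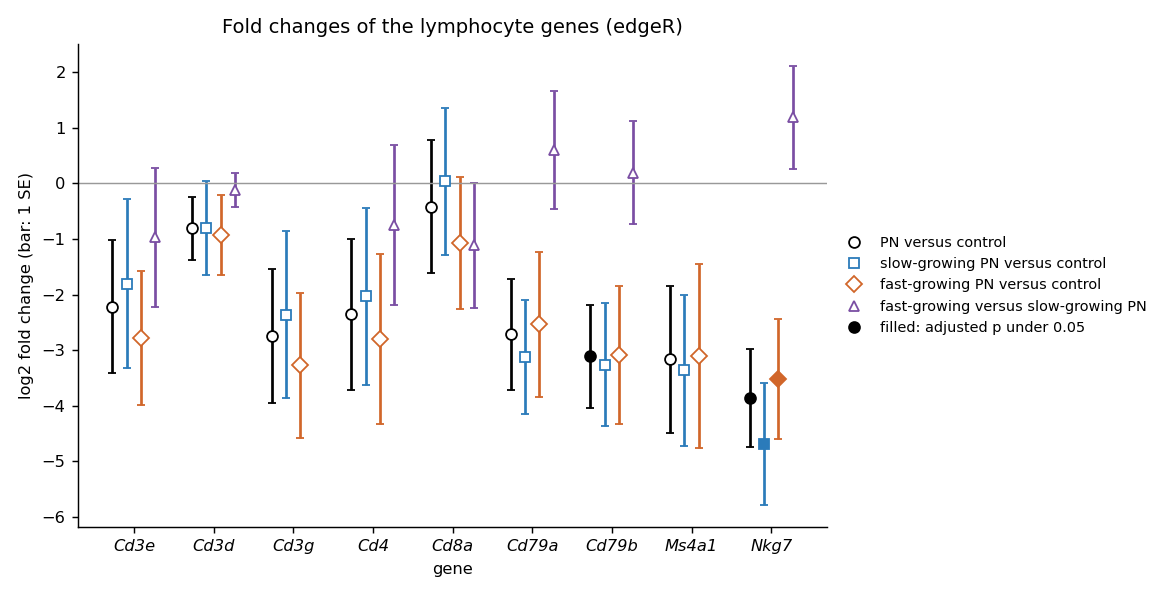
Points are log2 fold changes with bars of 1 SE for the 9 genes in the 4 comparisons, with filled symbols for an edgeR adjusted p under 0.05. Cd79b was called in PNs against controls, Nkg7 in all 3 comparisons with controls, and no gene between fast-growing and slow-growing PNs, where Cd3g and Ms4a1 were not tested.

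Genes that act with the members were read from 5 lists, of the T cell receptor and T lineage, T cell receptor signaling, the B cell receptor and B lineage, plasma cells, and NK and cytotoxic cells. Together they named 107 genes, of which 90 were in the count table and 79 were tested in PNs against controls. In that comparison 24 of the 79 were called lower (30.4%, against 13.4% of all genes tested) and 0 higher (against 12.9%), where 26.3% of all genes were called in either direction, and their median log2 fold change was -2.06. Called lower were 5 of 21 T lineage genes (Cd7, Icos, Ctla4, Foxp3 and Il7r), 1 of 12 signaling genes (Zap70), 8 of 23 B lineage genes (Cd22, Cr2, Fcer2a, Fcrl1, Cxcr5, Tnfrsf13c, Spib and Cd37), 3 of 5 plasma cell genes (Mzb1, Derl3 and Irf4) and 7 of 18 NK and cytotoxic genes (Ncr1, Prf1, Ctsw, Cst7, Ccl5, Eomes and Il2rb). Without DRG4 8 of 79 list genes tested were called lower (8.77% of all genes), without DRG5 12 of 79 (6.92%), without DRG3 43 of 83 (13%), without both DRG4 and DRG5 0 of 79 (1.93%), and without PN 1079 and PN 1191 36 of 73 (13.8%). Against the same controls, 7 of 72 genes tested (9.72%, against 7.13% of all genes) were called lower in slow-growing PNs and 15 of 78 (19.2%, against 16.7%) in fast-growing PNs, with none higher in either by edgeR, against 4.12% and 14.8% of all genes. In fast-growing PNs 1 gene, Sh2d1b1, was called higher with DESeq2 and without DRG4 and DRG5. Without DRG4 those counts were 0 of 72 and 4 of 78 (2.96% and 12.7% of all genes lower), without DRG5 2 of 73 and 3 of 79 (2.43% and 10.2%), and without DRG3 43 of 82 and 38 of 83 (9.57% and 17.1%). Without PN 1079 the count in slow-growing PNs was 5 of 57 (4.02%), and without PN 1191 that in fast-growing PNs was 26 of 73 (17.4%).

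The most abundant genes of each list gave a mixed picture. Among the T lineage transcription factors, Tcf7 had medians of 23.8 CPM in controls, 10.1 in slow-growing and 5.83 in fast-growing PNs, Lef1 of 11.6, 9.34 and 7.55 CPM, and Bcl11b of 11.3, 12 and 4.79 CPM. The medians of the developmental regulator Themis were 6.87, 4.24 and 0.434 CPM. PN 1079 and PN 1191 were the highest of their groups, at 118 and 55.6 CPM for Tcf7, 48.9 and 22.3 for Bcl11b and 64.9 and 35.9 for Themis. None of these 4 passed the test between PNs and controls. Of the signaling genes, the exchange factor Rasgrp1 had medians of 98.9, 168 and 72.1 CPM in the same order. Those of the kinase Prkcq were 42.8, 43.9 and 16.8 CPM. Those of the adaptor Lcp2 were 67.9, 13.1 and 32.3 and those of Vav1 23.2, 6.70 and 19.5 CPM, and again none passed. Rasgrp1 was highest in PN 1203 (470 CPM) and PN 1071 (266 CPM) of their groups, where Cd3e was at 0.183 and 0.749 CPM. Sensory neuron markers summed to 17704 and 9894 CPM in those 2 PNs. Prkcq was highest in PN 1203 (112 CPM) and PN 1214 (48.7 CPM), whereas Lcp2 and Vav1 were highest in PN 1079 and PN 1191. Which cells carried Rasgrp1 and Prkcq was not tested.

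Of the abundant B lineage genes, Ebf1, a B lineage factor that fat and stromal cells also express, averaged 116 ± 15.8 CPM (SD, n = 3) in controls, 121 ± 62.6 (n = 5) in slow-growing and 76.5 ± 32.9 (n = 6) in fast-growing PNs. Ciita, the MHC class II transactivator, had medians of 35.6, 4.15 and 20.3 CPM. The medians of the scaffold gene Bank1 were 57.9, 4.44 and 4.78 CPM and those of the coactivator Pou2af1 70.1, 3.83 and 0.605 CPM, with PN 1079 (20.6 and 16.9 CPM) and PN 1179 (47.3 and 35.6 CPM) the highest of their groups. None of these 4 was called between PNs and controls. Among plasma cell genes Igj, the immunoglobulin joining chain, had medians of 349, 2.74 and 1.38 CPM, with 30.5 CPM in PN 1198A and 169 in PN 1179 at the highest, and did not pass. Mzb1, a chaperone of immunoglobulin secretion, fell by 4.35 on the log2 scale (SE 1.16, edgeR adjusted p = 0.0133), and Irf4, a factor of plasma cells and activated lymphocytes, fell by 2.35 (SE 0.64, edgeR adjusted p = 0.0154). Without DRG5 neither was called, with log2 fold changes of -2.58 for Mzb1 and -1.56 for Irf4. At the other end, Mzb1 was at -5.90 without PN 1179 and Irf4 at -2.64 without DRG4. Prdm1 had medians of 15.3, 3.38 and 11.3 CPM.

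Of the abundant cytotoxic genes, Ccl5 and Il2rb were called lower in PNs, as Nkg7 was. Ccl5, a chemokine of cytotoxic T and NK cells, fell by 5.16 on the log2 scale (SE 0.81, edgeR adjusted p = 0.000426), from a median of 37.4 CPM in controls to 0.609 in slow-growing and 1.72 in fast-growing PNs. Il2rb, the beta chain of the IL-2 receptor, fell by 3.33 (SE 0.65, edgeR adjusted p = 0.00206). With 1 library left out, log2 fold changes ran from -5.73 to -3.62 for Ccl5 and from -3.89 to -2.45 for Il2rb. Both were smallest in size without DRG4. In single controls Ccl5 was at 1.04 CPM in DRG3, 129 in DRG4 and 37.4 in DRG5, and Il2rb at 1.12, 43.3 and 23.4 CPM, the same division as the members showed. Both calls held without any 1 library, the highest adjusted p over those edgeR fits being 0.0128 for Ccl5 and 0.0401 for Il2rb, but neither held without DRG4 and DRG5 together or with limma-voom (adjusted p = 0.0501 and 0.0661). The other abundant genes of this list did not pass between PNs and controls, with Klrk1, of the NKG2D receptor, at -1.62 (edgeR adjusted p = 0.220) and Sh2d1b1, an adaptor of NK and myeloid cells, at 1.27 (edgeR adjusted p = 0.459). In fast-growing PNs alone the log2 fold change of Sh2d1b1 against controls was positive too (SE 0.78) and did not pass (edgeR adjusted p = 0.0857).

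Between fast-growing and slow-growing PNs, 2 of the 54 list genes tested were called higher and none lower, against 0.802% and 0.466% of all genes tested. Cd72, a coreceptor of B cells that macrophages also express, was at 2.52 to 25.3 CPM in fast-growing PNs, with a median of 11.5, and at 0.305 to 2.25 CPM in slow-growing PNs, without overlap. Its log2 fold change was 3.22 (SE 0.65, edgeR adjusted p = 0.0449). Sh2d1b1 was at 4.22 to 15.7 CPM against 0.0913 to 2.93 CPM, also without overlap, as held for 2.1% of genes tested in that direction and for 0.912% in the other, with a log2 fold change of 3.25 (SE 0.66, edgeR adjusted p = 0.0449). On the same scale the B cell members Cd79a and Cd79b were at 0.61 and 0.19. Both calls were lost without any 1 of PNs 1079, 1202, 1206, 1053, 1179, 1191, 1214 and 1216. Those fits called 2 to 65 genes in all, against 196 with every PN. Over all 11 fits without 1 PN, log2 fold changes ran from 2.85 to 3.54 for Cd72 and from 2.96 to 4.18 for Sh2d1b1. With limma-voom the adjusted p-values of Cd72 and Sh2d1b1 were 0.107 and 0.0547. Klrd1, which encodes the NK receptor chain CD94 and was named after its values were seen, was at 1.33 to 7.04 CPM in fast-growing and 0.0760 to 0.914 CPM in slow-growing PNs, also without overlap, with a log2 fold change of 3.32 (SE 0.74), and did not pass, at an edgeR adjusted p of 0.0518. Klrk1, with medians of 0.812 CPM in slow-growing and 4.52 in fast-growing PNs, had a log2 fold change of 2.43 (SE 0.65) and did not pass, at an edgeR adjusted p of 0.0713.

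Summed levels of markers of other cell types are given beside these results. Some of these lists share genes with the lymphocyte lists, so their sums are not separate from them. Cr2 and Fcer2a are also in the lymph node stroma list, Il7r in the precursor list and Vav1 in the pan-leukocyte list. In DRG4 Cr2 was at 65.6 and Fcer2a at 31.2 CPM, within a lymph node stroma sum of 403 CPM. Macrophage markers (13 genes) summed to 101 to 761 CPM in slow-growing PNs and 430 to 1074 CPM in fast-growing PNs, with 255 to 731 CPM in controls, and 11 dendritic cell markers to 33.8 to 71.9, 52.5 to 192 and 34.9 to 291 CPM in the same order. The 13 pan-leukocyte genes summed to 167 CPM in DRG3 but 1762 in DRG4 and 1425 in DRG5, against 108 to 1035 CPM in PNs. The granulocyte precursor list (16 genes) summed to 58.3 to 1916 CPM in controls and 26.8 to 300.2 CPM in PNs, the marrow B and thymic precursor list (15 genes) to 134 to 192 CPM in controls and 87.6 to 580 CPM in PNs, and the lymph node stroma list (17 genes, of which Ccl21a, Ccl21b and Ccl21c were at 0 in every library) to 74.6 to 603 CPM in controls and 37.9 to 110 CPM in PNs. The erythroid list (13 genes, of which Hba-a1, Hba-a2, Hbb-b1, Hbb-b2 and Hbb-bt were at 0 throughout) summed to 71.8 to 274 CPM in controls and 18.4 to 170 CPM in PNs. Skeletal muscle genes (16) summed to 11599 to 41439 CPM in controls and 80.7 to 13261 CPM in PNs, and fat genes (14) to 4524 to 6430 CPM in controls and 46.2 to 3528 CPM in PNs. The part of these tissues in the members' levels was not tested.

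Genes with the most similar pattern to the members were sought among 14354 genes by Pearson's r of log2(CPM + 1) over the 14 libraries, a description in which all points share their libraries. The mean of Cd3e, Cd3d and Cd3g was followed most closely by Rhoh (r = 0.976), Cd5 (0.958), Gbp8 (0.956), Grap2 (0.951) and Abcg3 (0.947). Rhoh, a GTPase of blood cells, was at 21.7 and 13.7 CPM in DRG4 and DRG5, 16.8 in PN 1079 and 13.8 in PN 1191, against 0.691 in DRG3. The mean of Cd79a and Cd79b was followed by Ly6d (0.986), Faim3 (0.983), Cxcr5 (0.979), Tnfrsf13c (0.978) and Fcrla (0.978), and Faim3 was at 28.9 and 27.4 CPM in DRG4 and DRG5 and 11.6 in PN 1179 but 0.0757 in PN 1191. Nkg7 was followed by Il2rb (0.967), Ctla4 (0.965), Fam26f (0.964), Pla2g2d (0.963) and Cst7 (0.961). Leaving out the 2 libraries farthest from the median, DRG4 and DRG5, r was 0.902 to 0.977 for the first set, 0.937 to 0.960 for the second and 0.766 to 0.832 for the Nkg7 set.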

How the data were processed

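RNA was measured in 14 bulk libraries, grouped by the sample labels. Per the labels and the methods, the authors made libraries from total RNA by Ovation RNA-Seq System v2 amplification, aligned reads to mm10 with TopHat2 2.0.9 and counted them per gene with featureCounts 1.5.2 (CASAVA 1.4, FastQC 0.11.0 and edgeR 3.16.5 also stand in the submitters' processing notes). The deposited whole-number counts, 24062 genes and without normalization, were used; a table of normalized log2 values was not used here, and no column of the count table lacked a sample. No pair of libraries was identical. Amplified reads are not independent molecules.

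Each comparison was fitted on its own libraries in R 4.3.3 with edgeR 4.0.16 (filterByExpr, TMM factors, quasi-likelihood test, Benjamini-Hochberg adjustment over all genes tested, calls at an adjusted p under 0.05), without covariates, since the labels give no sex, batch or pairing. The fit was tested on simulated data first. Members below the filter were compared by an exact permutation test on log2(CPM + 1). Intervals are 1.96 SE on each side, with the SE taken from the fold change and its F statistic. With so few libraries this normal quantile makes them too narrow, so their 95% is nominal. Alternatives were RLE factors, DESeq2 1.42.0, limma-voom (limma 3.58.1), no filter, 1 fit of all 14 libraries, a pseudocount of 0.5 in the permutation test, and leaving out each library or the pairs named.

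The 9 members, 5 lymphocyte lists, 11 lists of other cells and the tests were chosen with earlier results of these data known. Named were the members, the 4 most abundant tested genes of each lymphocyte list, list genes called between fast-growing and slow-growing PNs, list genes called in PNs against controls, which were chosen after their values were seen, defining markers of other lists beside a result, and the 5 genes most similar to each pattern whose mean log2 CPM was at least 1. Exon lengths came from GENCODE M21. Single-cell and human samples were not analysed here.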

Additional observations from a re-analysis of the deposited data

Results flagged for a closer look

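Dixon's 95% limit was applied to 18 sets of 5 or 6 PN libraries (9 genes in slow-growing and in fast-growing PNs). In 13 of them a library was farther from its nearest neighbour than that limit allows. For normally distributed values the limit is passed in about 1 in 20 sets, or 0.9 here. CPM were used without a log and cannot fall below 0, so 0.9 is not the count that chance gives for them. All 13 were the highest value of their set, and they came from 3 libraries. In the slow-growing group PN 1079 stood apart in Cd3e (47.6 CPM, next 4.27), Cd3g (9.27, next 1.93), Cd4 (69.9, next 7.92), Cd8a (98.4, next 11.2) and Ms4a1 (10.2, next 0.868). In the fast-growing group PN 1191 stood apart in Cd3e (22.7 CPM, next 6.88), Cd3g (4.99, next 1.61), Cd4 (49.1, next 7.83) and Cd8a (50.7, next 6.15). PN 1179 stood apart in Cd79a (26.1 CPM, next 1.44), Cd79b (17.8, next 2.21), Ms4a1 (17.8, next 0.296) and Nkg7 (4.61, next 1.66). Cd3d held no such library in either group. The flags are not independent, since genes of 1 cell type share their libraries.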

How the results depend on the processing

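No paired analysis was possible because the groups share no replicate numbers. Depth limits Cd3g, Ms4a1 and Nkg7 in PNs, where several libraries were at or below 3 counts, and 3 controls that differ among themselves limit each comparison with them.

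Calls of members between PNs and controls numbered 2, and 3 with DESeq2 (Cd79a, Cd79b and Nkg7), 1 with limma-voom, 6 without PN 1079 and PN 1191, 1 without DRG4 and DRG5, and 0 to 4 with 1 library left out. In slow-growing PNs they numbered 1, and 4 with DESeq2, 0 with limma-voom, 0 without DRG4 and DRG5, and 0 to 3 with 1 library left out. In fast-growing PNs they numbered 1, and 4 with DESeq2, 0 with limma-voom, and 0 to 5 with 1 library left out, while the 1 call without DRG4 and DRG5 was Cd3d, higher. Between fast-growing and slow-growing PNs the count was 0 throughout. Between PNs and controls the share of all genes called lower moved as well. It was 13.4% with edgeR, 16.5% with DESeq2 and 14.5% with limma-voom. Without DRG4 it was 8.77% by edgeR, and without DRG5 6.92%.

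For the other lymphocyte lists, 24 genes were lower in PNs, and 13 with limma-voom, 0 without DRG4 and DRG5, and 8 to 43 with 1 library left out. In slow-growing PNs 7 were lower, and 30 with DESeq2, 1 with limma-voom, 11 without the filter, 21 in 1 fit of all 14 libraries, 0 without DRG4 and DRG5, and 0 to 43 with 1 library left out. In fast-growing PNs 15 were lower, and 24 with DESeq2, 4 with limma-voom, 0 without DRG4 and DRG5, and 3 to 38 with 1 library left out, while Sh2d1b1 was called higher with DESeq2 and without DRG4 and DRG5. Between fast-growing and slow-growing PNs 2 were higher, and 7 with DESeq2, 0 with limma-voom, 1 in 1 fit of all 14 libraries, 0 without PN 1079 and PN 1191, and 0 to 5 with 1 library left out. Tests in slow-growing PNs covered 72 list genes with edgeR, DESeq2 and limma-voom, 89 without the filter and 79 in 1 fit of all 14 libraries. Of all genes, edgeR called 13.4% lower in PNs and limma-voom 14.5%. Whether the lists moved apart from all genes under these alternatives was not tested.

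Directions turned mostly without DRG4 and DRG5. In PNs the log2 fold changes of Cd3e, Cd3d, Cd3g, Cd4, Cd8a, Cd79a, Cd79b, Ms4a1 and Nkg7 were then 2.66, 3.63, 3.27, 3.77, 3.34, 1.67, 2.66, 1.56 and 0.70, and those of Ccl5, Il2rb and Mzb1 were 0.57, 0.99 and 0.28. In slow-growing PNs Cd3e, Cd3d, Cd3g, Cd4, Cd79a, Cd79b and Ms4a1 were at 3.09, 3.67, 3.66, 4.12, 1.29, 2.53 and 1.37. In fast-growing PNs Cd3e, Cd3d, Cd3g, Cd4, Cd8a, Cd79a, Cd79b, Ms4a1 and Nkg7 were at 2.14, 3.58, 2.80, 3.38, 2.72, 1.91, 2.75, 1.68 and 1.12. With limma-voom Cd3d was at 0.35 in PNs, 0.34 in slow-growing and 0.32 in fast-growing PNs. Cd8a in slow-growing PNs was at -0.0024 with RLE factors, -0.0072 with DESeq2 and -0.29 with limma-voom. Between fast-growing and slow-growing PNs, limma-voom put Cd79a at -0.43 and Cd79b at -0.45, and without PN 1079 and PN 1191 Cd3e was at 0.25 and Cd3d at 0.13. The cause was not tested.

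With 1 library left out, ranges crossed 0 in PNs for Cd3d (-1.37 to 0.20) and Cd8a (-1.38 to 0.65), in slow-growing PNs for Cd3d (-1.36 to 0.23) and Cd8a (-1.94 to 1.12), in fast-growing PNs for Cd3d (-1.49 to 0.067), and between fast-growing and slow-growing PNs for Cd3e (-2.24 to 1.49), Cd3d (-0.28 to 0.25), Cd4 (-2.92 to 1.5), Cd8a (-2.77 to 0.85), Cd79a (-1.67 to 1.53) and Cd79b (-1.37 to 0.89). For the members and for Ccl5, Il2rb, Irf4, Mzb1, Cd72 and Sh2d1b1, 368 fold changes with 1 library left out kept direction and call, 15 turned direction, 31 lost a call and 19 gained one.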
